A study of Mus musculus with 30 samples.

Results

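Solute carriers are membrane transporters, described here in AtT-20 cells, a corticotrope-like line from a tumour of the mouse pituitary, given 100 nM corticotropin-releasing hormone (CRH) or left untreated after serum deprivation. The members are the spots of a cDNA array whose name in the scanner files begins with the words solute carrier family: 149 of 24192 spots, for 108 genes. Of these, 6 spots for 4 genes belong to family 25, the mitochondrial carriers, and are described apart from the 143 spots of the other families. RNA of CRH-treated and untreated cells was hybridised together at 1, 3, 6, 12 and 24 h, on 6 arrays per time point and 30 in all, with the dyes swapped between 3 arrays and the other 3. The 6 arrays of a time point share 1 pair of RNA extracts, so an SD over them, and any p over the 30 arrays, measures the spread between hybridisations and not between cultures. The cells are 1 line, and its tumour origin limits it as a model of the pituitary corticotrope.

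Each solute carrier family moves a kind of small molecule across a membrane, such as amino acids, sugars, ions, metals or nucleosides. Some work alone, whereas the heavy chain Slc3a2 holds light chains such as Slc7a5 at the cell surface, and basigin does the same for the lactate carrier Slc16a1. Mitochondrial carriers sit in the inner mitochondrial membrane and exchange metabolites between the matrix and the cytosol. CRH acts on corticotropes through a receptor that raises cyclic AMP, and the cells answer with secretion of ACTH.

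All values are log2 ratios of CRH-treated over untreated RNA after a loess correction in each print-tip block, so that 0 stands for equal amounts. A spot was kept where neither channel fell into the lowest 10% of intensities on any array, as was true of 14375 spots and of 82 of the 149 solute carrier spots, covering 70 genes. A solute carrier was read for a lasting effect with limma on the 5 time point averages, and for a change over time with a linear model of time and dye orientation over the 30 arrays. The median intensity of a channel lay between 458 and 2038. Precision over the arrays of a time point is that of hybridisations of 1 pair of RNA extracts. Of 14 spots for corticotrope and neuroendocrine genes, 10 lay above the limit on all 30 arrays, among them Pomc and Tbx19, which mark corticotropes. A spot of Cpe did so on 1 array only. For leukocyte genes 5 of 7 spots lay above it on all 30 arrays, among them Cd3g and Cd8a. A place above the limit was therefore not read as expression. On 6 arrays of a time point the median SD of a solute carrier spot lay between 0.247 and 0.316, and between 0.272 and 0.350 for all spots kept. Across the kept solute carrier spots the mean ratios of the 2 dye orientations ran against each other, with r from -0.69 at 6 h to -0.23 at 3 h (82 spots that share arrays and dyes, no test). A constant dye difference cancels in the mean of a time point, since both orientations are held equally.

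No kept solute carrier spot had a mean ratio of 1.5-fold or more in either direction at any time point. Mean ratios over the kept spots ran from -0.53 (0.691-fold) for a spot named as member 1-like of family 37 (Slc37a1l, spot 313) to 0.49 (1.41-fold) for Slc3a2 (spot 23422), both at 3 h. The rule of size asked for a mean of at least 1.5-fold with 6 arrays of 1 sign: among all spots kept 0.403% met it upwards and 0.174% downwards at some time point, and of the 82 solute carrier spots 0 met it in either direction. After subtraction of a channel's 10th percentile from its intensities, 3 carrier spots met it. Their means were 1.14 for Slc38a3 and 0.64 for Slc3a2 at 3 h and 0.79 for Slc29a2 at 24 h. In that setting 403 of all spots kept met it, against 81 in the main one, so the 3 are not read as a result about carriers. Medians over the 82 spots stayed between -0.01 and 0.02 at every time point, beside -0.02 to 0.00 over all spots kept. The median size of the ratio, without its sign, was 0.0902, 0.097, 0.0679, 0.0869 and 0.136 in order of time, against 0.115, 0.0984, 0.0793, 0.102 and 0.101 over all spots kept.

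**Figure D1:**
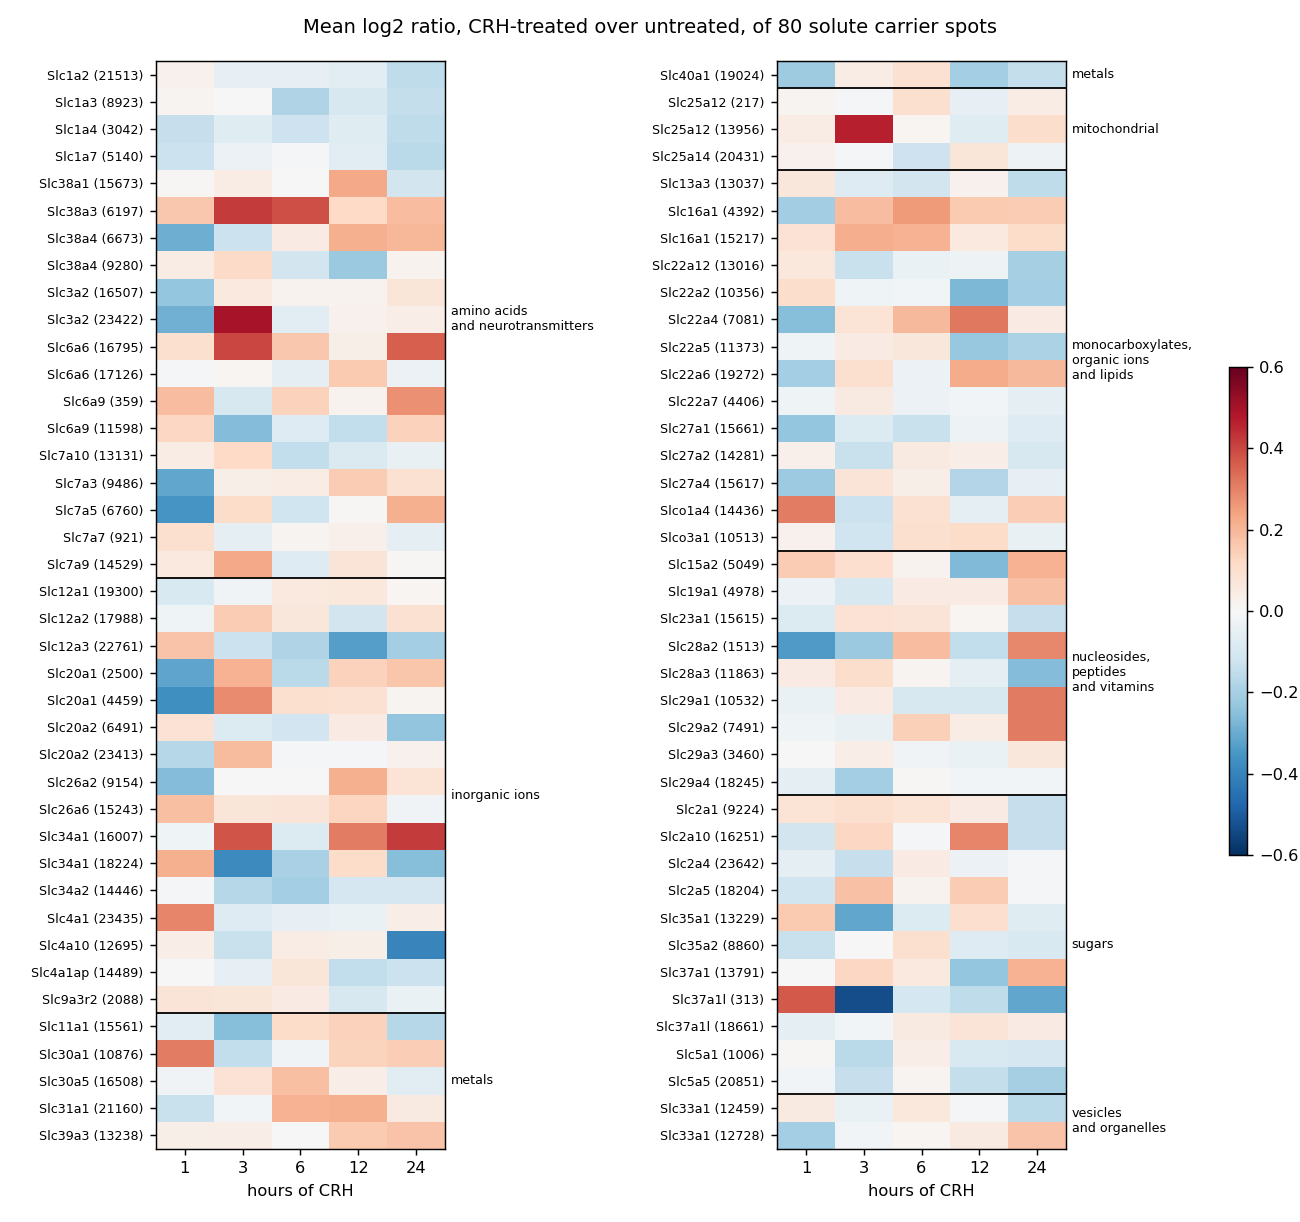
Mean log2 ratio, CRH over untreated (colour, 6 arrays per cell) of 80 of the 82 solute carrier spots kept, by hours of CRH, ordered by transport class and with spot numbers in brackets. The ratios run from -0.53 to 0.49, and several pairs of spots of 1 gene, such as Slc34a1, differ in colour.

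Neither test across time points called a solute carrier. For a CRH effect, which is a mean over the 5 time points different from 0, limma called 8 of 14375 spots (0.0557%) at an adjusted p under 0.05 and 0 of the 82 solute carrier spots, of which 4 had an unadjusted p under 0.05, beside 5.38% of all spots. For a slope over log2 hours it called 0 spots (0%) in all, and 7 solute carrier spots had an unadjusted p under 0.05, beside 7.15% of all spots. The mean ratio lay above 0 at all 5 time points in 4 solute carrier spots (3.05% of all spots) and below 0 in 4 others (3.69% of all spots), shares too close to the background to be read as a result about carriers. The 4 above 0 were Slc38a3 (spot 6197), Slc6a6 (spot 16795), Slc16a1 (spot 15217) and the zinc importer Slc39a3. The 4 below 0 were Slc1a4 and Slc1a7, which carry neutral amino acids and glutamate, the phosphate carrier Slc34a2 and the fatty acid transporter Slc27a1. These 5 spots outside the rule for named genes (Slc39a3 and the 4 below 0) were chosen after their values were seen.

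A change over time was called for 5 carriers. Of the 82 spots, 13 had an interaction of time and dye orientation at p under 0.01 and were set aside (14.8% of all spots kept). Among the 69 left, 8 had a p under 0.01 for time (8.27% of the 12249 spots tested), and 5 had an adjusted p under 0.05 (3.85%): Slc7a5, Slc3a2, Slc6a9, Slc16a1 and Slc25a12. With 69 spots, these counts stand close to the background and are not read as a result about solute carriers as a group. The time points nearly coincide with days of quantification, which are numbered here by the time points they hold and not by date. Arrays of 1 h were read on day 1, those of 3 and 6 h on day 2 and those of 24 h on day 4. The arrays of 12 h were split between days 3 and 4. A difference between 1 h and a later time therefore cannot be told apart from a difference between days. With the day as a block, the test holds only the differences between 3 and 6 h and between 12 and 24 h within a day. A low 1 h value, as in Slc7a5 and Slc16a1, cannot enter it, so it does not test that change again. In this setting Slc25a12 alone of the 5 had an adjusted p under 0.05, at 0.0332, beside 37 of all spots tested. That of the others ran from 0.228 for Slc3a2 to 0.974 for Slc16a1. The count of 5 was 1 when the arrays numbered replicate 2, or those numbered 6, were left out. Over all spots tested the count of 472 was then 212 and 419. A spot at the scanner limit (an intensity of 65000 or more) is saturated, so its ratio cannot show the full difference between the channels. Of the kept solute carrier spots, spot 11598 of Slc6a9 was saturated in at least 1 channel on 27 of 30 arrays, spot 13956 of Slc25a12 on 7, and a spot each of Slc1a3, Slc35a1 and Slc12a3 on 1. All spots saturated on any array were then left out, a setting chosen after the data were seen. Of 66 carrier spots 2 had an adjusted p under 0.05, Slc7a5 (0.0308) and Slc16a1 (0.0382), beside 390 of all spots tested. That of Slc3a2 was 0.0501.

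The amino acid exchanger of the cell surface, made of the light chain Slc7a5 and the heavy chain Slc3a2, was represented by both chains. Slc7a5, which imports large neutral amino acids such as leucine, had a lowest ratio of -0.71, a median of -0.51 and a highest of 0.31 at 1 h, and -0.30, 0.10 and 0.50 at 3 h. Its means ± SD (n = 6) were -0.35 ± 0.39, 0.11 ± 0.33, -0.12 ± 0.15, 0.01 ± 0.25 and 0.22 ± 0.30 in order of time. The 1 h value rested on 5 of 6 arrays below 0, and it was -0.63 with CRH-treated RNA in Cy3 against -0.07 in Cy5. Over the 30 arrays the test of time gave an adjusted p of 0.0277. With the day of quantification as a block it was 0.69, in a test that the 1 h value cannot enter. Without 1 replicate the adjusted p of time ran from 0.0137 to 0.137, and it was under 0.05 only without replicate 5. With 1 loess curve over the whole array it was 0.0733. At 0.784-fold, the 1 h mean was the farthest from 0 among the 5 time points.

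Slc3a2, spot 23422, had a lowest ratio of -1.02, a median of -0.15 and a highest of 0.30 at 1 h, and 0.04, 0.52 and 0.88 at 3 h. At 3 h all 6 arrays lay above 0, with a mean of 0.49 ± 0.31 (1.41-fold), while at 1 h only 2 did, with a mean of -0.29 ± 0.52. From 6 h onwards the means were -0.07 ± 0.22, 0.03 ± 0.25 and 0.04 ± 0.11. The test of time had an adjusted p of 0.0456, and without replicate 1 the spot was set aside for an interaction (p = 0.00216, n = 25). From 3 to 6 h, which share a day, the difference was -0.56 (adjusted p = 0.129). The other kept Slc3a2 spot, 16507, also had its lowest mean at 1 h, -0.23 ± 0.20, but only 0.06 ± 0.10 at 3 h, and was set aside for its interaction (n = 30, p = 0.00293).

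A further amino acid carrier of the Slc7 family, the cationic amino acid transporter Slc7a3, and the sodium-phosphate carrier Slc20a1 had like values at 1 h, and both are named here after their values were seen. The mean of Slc7a3 was -0.31 ± 0.26 at 1 h and 0.04 ± 0.18 at 3 h. For the 2 spots of Slc20a1 the 1 h means were -0.32 ± 0.49 and -0.37 ± 0.75, against 0.21 ± 0.20 and 0.28 ± 0.24 at 3 h. All 3 spots were set aside for an interaction, and their 1 h ratios depended on the dye: with CRH-treated RNA in Cy3 they were -0.52, -0.75 and -0.96, and in Cy5 -0.10, 0.11 and 0.22. The orientations did not overlap at 1 h for any of the 3 spots. How many of all spots kept were without overlap was not counted, so this is not read as a trait of these spots. Over all spots kept the 2 orientations had r = -0.29 at 1 h. A mean above 0 at 1 h was found in 11 of 19 kept spots for amino acid and neurotransmitter carriers. The same held for 8 of 16 kept spots for carriers of inorganic ions. A low 1 h value is therefore not read as shared by these classes.

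Slc6a9, the plasma membrane glycine transporter GlyT1, had an adjusted p of time of 0.00527 on spot 11598, but this spot was saturated. Of the 6 arrays per time point, both channels were at the scanner limit on 3, 2, 2, 5 and 6 in order of time. At 3 h the CRH-treated channel was at the limit on 5 arrays and the untreated one on 2. The normalised values had a lowest, median and highest of 0.01, 0.13 and 0.23 at 1 h and of -0.36, -0.25 and -0.20 at 3 h, and they are printed as recorded, since no fold and no difference between time points can be read from a spot with both channels at the limit. The adjusted p was 0.368 with the day as a block and 0.0652 without replicate 2. The other kept spot, 359, had means of 0.18 ± 0.24, -0.10 ± 0.45, 0.14 ± 0.33, 0.02 ± 0.22 and 0.28 ± 0.28 in order of time (adjusted p = 0.272). Another 3 spots of this gene, 7771, 10444 and 14501, were above the intensity limit on 13, 17 and 29 of 30 arrays and were left out.

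**Figure D2:**
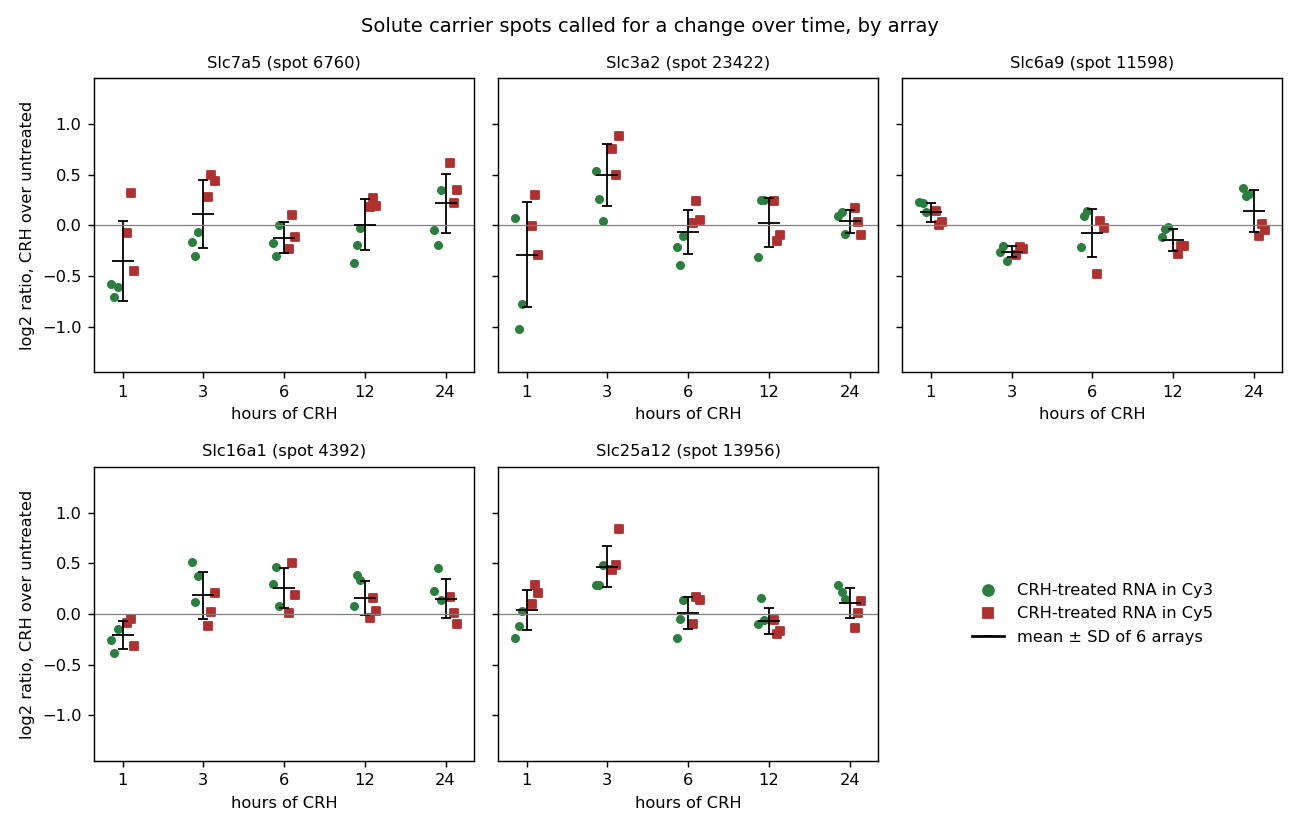
Log2 ratio, CRH over untreated, on each array (points) of the 5 solute carrier spots with an adjusted p under 0.05 for time, by hours of CRH. Green circles stand for CRH-treated RNA in Cy3, red squares for Cy5, and black bars for the mean ± SD of 6 arrays, such as 0.49 ± 0.31 for Slc3a2 at 3 h. Slc6a9 was saturated on 27 of 30 arrays and Slc25a12 on 7, at 12 and 24 h.

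Slc16a1, the monocarboxylate carrier that moves lactate and pyruvate, was low at 1 h and higher later on spot 4392. All 6 arrays were below 0 at 1 h, from -0.39 over a median of -0.20 to -0.05, and all 6 above 0 at 6 h, from 0.01 over 0.24 to 0.50. The means ± SD were -0.21 ± 0.13, 0.19 ± 0.23, 0.26 ± 0.20, 0.16 ± 0.17 and 0.15 ± 0.19 from 1 to 24 h. The test of time had an adjusted p of 0.0348. With the day as a block it was 0.974, in a test that the 1 h value cannot enter. The other spot, 15217, had 0.09 ± 0.51 at 1 h and 0.22 ± 0.44, 0.21 ± 0.70, 0.06 ± 0.45 and 0.11 ± 0.51 afterwards, and its adjusted p of time was 0.831. On that spot every array with CRH-treated RNA in Cy3 lay above every array with it in Cy5 at all 5 time points. On spot 4392 the adjusted p of time ran from 0.035 to 0.179 without 1 replicate, and it was under 0.05 only without replicate 4 or 5. With 1 loess curve over the whole array it was 0.108. Within a day of quantification Slc16a1 (spot 4392) had a difference of 0.07 between 6 and 3 h, with an adjusted p of 0.894.

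Slc25a12 (aralar), which exchanges aspartate for glutamate across the inner mitochondrial membrane, was the called mitochondrial carrier. On spot 13956 it had a lowest ratio of 0.28, a median of 0.46 and a highest of 0.84 at 3 h, and all 6 arrays lay above 0. The mean was 0.47 ± 0.20 (1.38-fold) at 3 h, but 0.04 ± 0.20 before and 0.01 ± 0.16, -0.07 ± 0.13 and 0.11 ± 0.15 after. The arrays of 3 h lay above all those of 6 and 12 h and overlapped those of 1 and 24 h in range. The test of time had an adjusted p of 0.00973, with an adjusted p of 0.0332 when the day was a block. Its interaction p of 0.0135 lies just above the limit, and under 5 other settings, among them the arrays without replicate 3, the spot was set aside for an interaction (p from 0.00196 to 0.00873). Without replicate 6 the adjusted p was 0.0603. From 3 to 6 h, which share a day, the difference was -0.46 (adjusted p = 0.179). From 12 to 24 h, on the 8 arrays that share a day, it was 0.19 (adjusted p = 0.865). The spot was saturated on 0 arrays up to 6 h, on 3 of 6 at 12 h and on 4 of 6 at 24 h. The other Slc25a12 spot, 217, gave -0.01 ± 0.21 at 3 h and a p of time of 0.878, so the 3 h value rests on 1 spot.

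The regions around the transcription starts of these called carriers are shown because a cyclic AMP response element (CRE, TGACGTCA) is the site through which CREB, a factor activated by cyclic AMP, binds DNA. RefSeq windows of 300 bases (250 before and 50 after a start, GRCm38.p6) were at hand for 83 of the 108 carrier genes, with none for Slc7a5. Both strands were searched, after the values were seen, for the CRE, for its shorter form TGACG, which may overlap it, and for TGATGNAA, an element bound by C/EBP and ATF factors. The CRE was in 1.79% of all 32851 windows and in 0 of the 83 carrier genes. The shorter form was in 20.8% of all windows and in at least 1 window of 18 carrier genes, and TGATGNAA in 3.97% and in 3 genes (Slc1a4, Slc7a7 and Slc7a11). Genes with more than 1 annotated start had several windows. Capitals mark this shorter form, and the second of 3 windows of Slc6a9 holds 2.
Slc3a2, chr19:8713848-8714147, minus strand: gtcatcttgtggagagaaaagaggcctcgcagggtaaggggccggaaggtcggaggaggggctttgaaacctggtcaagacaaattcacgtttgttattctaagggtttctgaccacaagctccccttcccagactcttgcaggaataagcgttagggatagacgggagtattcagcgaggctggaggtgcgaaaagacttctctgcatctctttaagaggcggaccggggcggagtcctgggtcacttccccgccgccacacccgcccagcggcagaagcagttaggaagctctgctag
Slc16a1, chr3:104638414-104638713, plus strand: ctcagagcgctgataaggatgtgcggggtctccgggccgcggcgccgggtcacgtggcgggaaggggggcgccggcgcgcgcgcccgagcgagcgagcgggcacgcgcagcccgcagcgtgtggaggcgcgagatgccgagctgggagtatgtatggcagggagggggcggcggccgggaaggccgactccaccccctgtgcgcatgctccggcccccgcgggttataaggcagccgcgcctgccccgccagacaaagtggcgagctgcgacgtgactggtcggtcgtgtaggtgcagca
Slc25a12, chr2:71367706-71368005, minus strand: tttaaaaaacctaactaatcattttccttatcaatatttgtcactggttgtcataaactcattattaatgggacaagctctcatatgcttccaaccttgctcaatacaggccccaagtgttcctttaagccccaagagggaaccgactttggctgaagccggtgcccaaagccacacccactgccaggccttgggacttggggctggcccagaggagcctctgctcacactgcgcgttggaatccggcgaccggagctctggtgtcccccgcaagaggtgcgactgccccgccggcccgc
Slc6a9, chr4:117849100-117849399, plus strand: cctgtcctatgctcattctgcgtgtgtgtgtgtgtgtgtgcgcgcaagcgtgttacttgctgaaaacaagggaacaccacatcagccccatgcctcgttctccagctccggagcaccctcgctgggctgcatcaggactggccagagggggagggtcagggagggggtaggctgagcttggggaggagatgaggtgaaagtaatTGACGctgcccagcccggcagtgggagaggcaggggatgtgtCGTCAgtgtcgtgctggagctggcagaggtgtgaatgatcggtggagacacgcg
A match is a description of these letters and not a site in use, and a window without one says nothing of sites elsewhere.

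Amino acid and neurotransmitter carriers held 38 spots, of which 19 were kept, and 4 of the 15 spots tested had a time p under 0.01: those of Slc7a5, Slc3a2 and Slc6a9 already given, and Slc6a6. Beside 8.27% of all spots tested, this count and those of the classes below rest on few spots and are not read as results about a class. Slc6a6, the taurine transporter, had on spot 16795 means of 0.09 ± 0.16, 0.40 ± 0.24, 0.16 ± 0.36, 0.04 ± 0.30 and 0.36 ± 0.13, with an adjusted p of 0.0903, so it did not pass. At 24 h all 6 arrays lay above 0, from 0.24 to 0.60, and at 3 h 5 did, from -0.01 to 0.67. The other spot, 17126, stood at -0.01, 0.01, -0.05, 0.16 and -0.03 in the same order. Slc38a4, a neutral amino acid carrier, had on spot 9280 0.04, 0.12, -0.11, -0.22 and 0.02 (adjusted p = 0.135), and on spot 6673 -0.29, -0.13, 0.05, 0.21 and 0.20, with opposite signs at 4 time points. Slc38a3, a glutamine transporter, had a mean over time of 0.25 (limma, adjusted p = 0.387), which became 0.51 after subtraction of a channel's 10th percentile. Its ratios were 0.16 ± 0.50, 0.42 ± 0.27, 0.39 ± 0.28, 0.12 ± 0.34 and 0.18 ± 0.61, all 6 arrays above 0 at 3 and 6 h, and it was set aside for an interaction (n = 30, p = 0.00549), with 0.64 for Cy3 and -0.27 for Cy5 at 24 h.

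Carriers of inorganic ions held 32 spots, 16 kept, of which 2 of 11 tested had a p under 0.01 and 0 an adjusted p under 0.05. Slc12a3, the thiazide-sensitive sodium-chloride cotransporter, had means of 0.17 ± 0.14, -0.13 ± 0.17, -0.18 ± 0.23, -0.33 ± 0.22 and -0.20 ± 0.17 (adjusted p = 0.0577), with 5 arrays above 0 at 1 h and 0 at 12 h. Slc4a10, a sodium-dependent bicarbonate transporter, stood between -0.13 and 0.05 up to 12 h and at -0.40 ± 0.40 at 24 h (adjusted p = 0.101). All 6 arrays were below 0 there, but by -0.04 on average with CRH-treated RNA in Cy3 and by -0.75 in Cy5, without overlap. The phosphate carrier Slc20a2 had -0.17, 0.19, -0.01, -0.01 and 0.02 on spot 23413 (adjusted p = 0.186), and 0.08, -0.08, -0.11, 0.05 and -0.24 on spot 6491. Slc34a1, a sodium-phosphate carrier best known from the kidney, gave a positive mean at 3, 12 and 24 h on spot 16007 (0.38 ± 0.17, 0.31 ± 0.15 and 0.42 ± 0.17, all 6 arrays above 0 at each) and -0.38 ± 0.63, 0.11 ± 0.76 and -0.26 ± 0.96 on spot 18224. Both of its kept spots were set aside for an interaction (n = 30, p = 0.00841 and p = 5.35e-06). A further spot, 83, was above the limit on 28 of 30 arrays and was left out.

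Among the other classes, none of the tested carriers passed a p under 0.01 except Slc16a1 and Slc25a12. Metal carriers had 6 of 14 spots kept. The zinc exporter Slc30a1 had means of 0.31 ± 0.27 at 1 h and -0.15 ± 0.22 at 3 h (adjusted p = 0.232), and the iron and manganese carrier Slc11a1 had -0.25 ± 0.35 at 3 h (adjusted p = 0.562). Nucleoside, peptide and vitamin carriers had 9 of 10 spots kept, with the largest means for the nucleoside carriers Slc28a2, -0.34 ± 0.40 at 1 h, and Slc29a2, 0.31 ± 0.24 at 24 h, where all 6 arrays were above 0 (adjusted p 0.636 and 0.66). Among the 16 of 29 kept spots for monocarboxylates, organic ions and lipids, the cation and carnitine carrier Slc22a4 and the organic anion carriers Slc22a6 and Slco1a4 had means of 0.31 ± 0.61 at 12 h, 0.22 ± 0.21 at 12 h and 0.31 ± 0.35 at 1 h, with adjusted p of 0.487, 0.175 and 0.863. The Slc22a4 value was 0.0715 without the highest of its 6 arrays, at 1.53. Slc33a1, the acetyl-CoA carrier of the endoplasmic reticulum and the only member kept of the vesicle and organelle class, had means between -0.20 and 0.17 over its 2 spots, which had opposite signs at 3 of 5 time points.

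The class made of the sugar and nucleotide sugar families, which by family number also holds both spots of the iodide carrier Slc5a5, had 11 of 16 spots kept, 0 of 8 tested with a time p under 0.01. Slc2a1, the glucose transporter of most cells, had means of 0.08, 0.09, 0.08, 0.05 and -0.14 (p of time 0.856, named after its value was seen). The largest mean ratios of this class belonged to spots set aside for an interaction. Slc37a1l, spot 313, had 0.37 ± 0.29 at 1 h and -0.53 ± 1.04 at 3 h, where the mean was -1.33 on the arrays with treated RNA in Cy3 and 0.27 on the others (interaction p = 0.00273, n = 30), while its other spot, 18661, stayed between -0.06 and 0.08. Slc35a1, which carries CMP-sialic acid into the Golgi, had -0.31 ± 0.82 at 3 h, with -1.05 for Cy3 and 0.42 for Cy5 (interaction p = 1.42e-05, n = 30). For Slc35a1 the 2 orientations did not overlap at any time point.

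**Figure D3:**
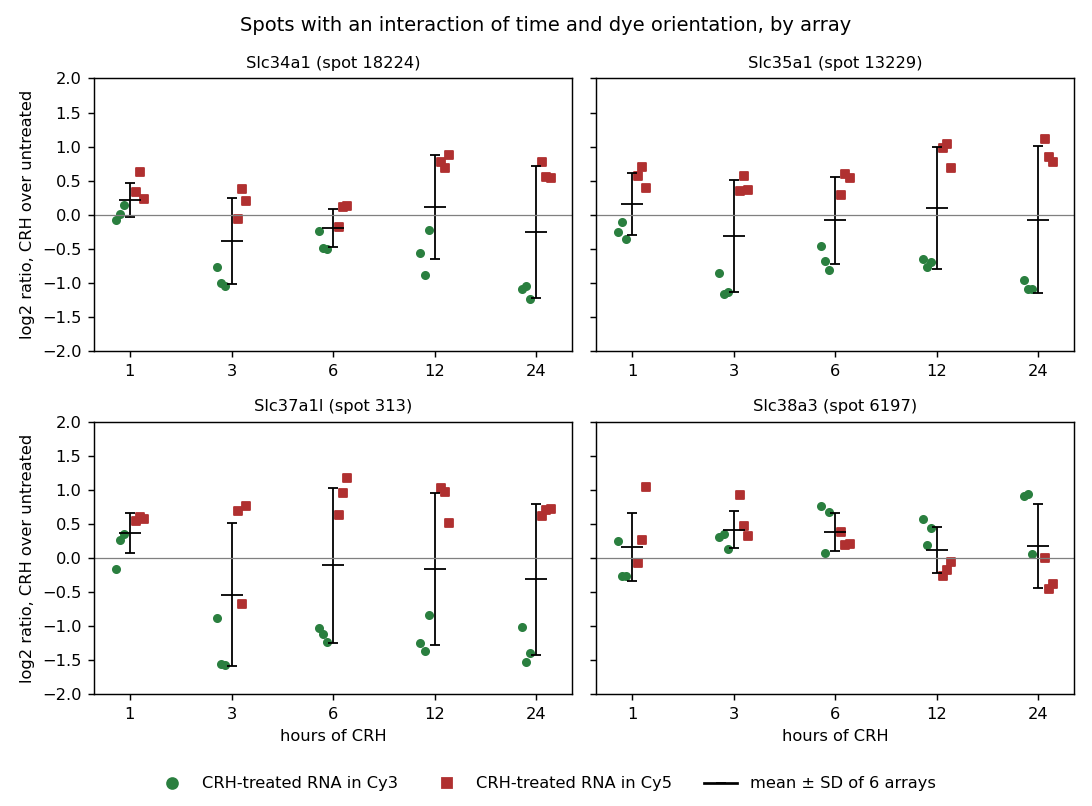
Log2 ratio on each array (points) of 4 solute carrier spots set aside for an interaction of time and dye orientation, by hours of CRH. Green circles (CRH-treated RNA in Cy3) and red squares (Cy5) differ by an amount that changes with time, as for Slc35a1 at 3 h with -1.05 and 0.42. Black bars are the mean ± SD of 6 arrays.

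Mitochondrial carriers had 3 of 6 spots kept, for 2 of 4 genes. Besides Slc25a12, the spot of Slc25a14, a member related to the uncoupling proteins, had means of 0.03 ± 0.22, -0.01 ± 0.10, -0.12 ± 0.12, 0.07 ± 0.22 and -0.03 ± 0.15, and a p of time of 0.362. Over the 3 spots the medians were 0.03, -0.01, 0.01, -0.05 and 0.05 from 1 to 24 h, and over the 79 kept spots of the other families they lay between -0.01 and 0.02. A time p under 0.01 was found in 1 of 3 mitochondrial spots and in 7 of 66 tested spots of the other families. With 3 spots, 2 of them for 1 gene, no difference between the groups can be read. The 3 spots left out lay above the limit on 22 to 26 of 30 arrays, among them that of the glutamate carrier Slc25a18 on 26.

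Spots of the same gene often differed. For 12 genes a pair of spots was kept, and the means of the pair had the same sign at 31 of 60 time points. The pairs share arrays and dyes, so this count is a description. The gap at a time point reached 0.76 for Slc34a1, 0.52 for Slc37a1l, 0.48 for Slc25a12 and 0.43 for Slc3a2, all at 3 h, and 0.43 for Slc38a4 at 12 h. Slc20a2 had a largest gap of 0.27 and Slc16a1 of 0.30, and no gap is read for Slc6a9, of which 1 spot was saturated. Whether spots of 1 name hold different parts of the transcript was not given in the sources used here.

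**Figure D4:**
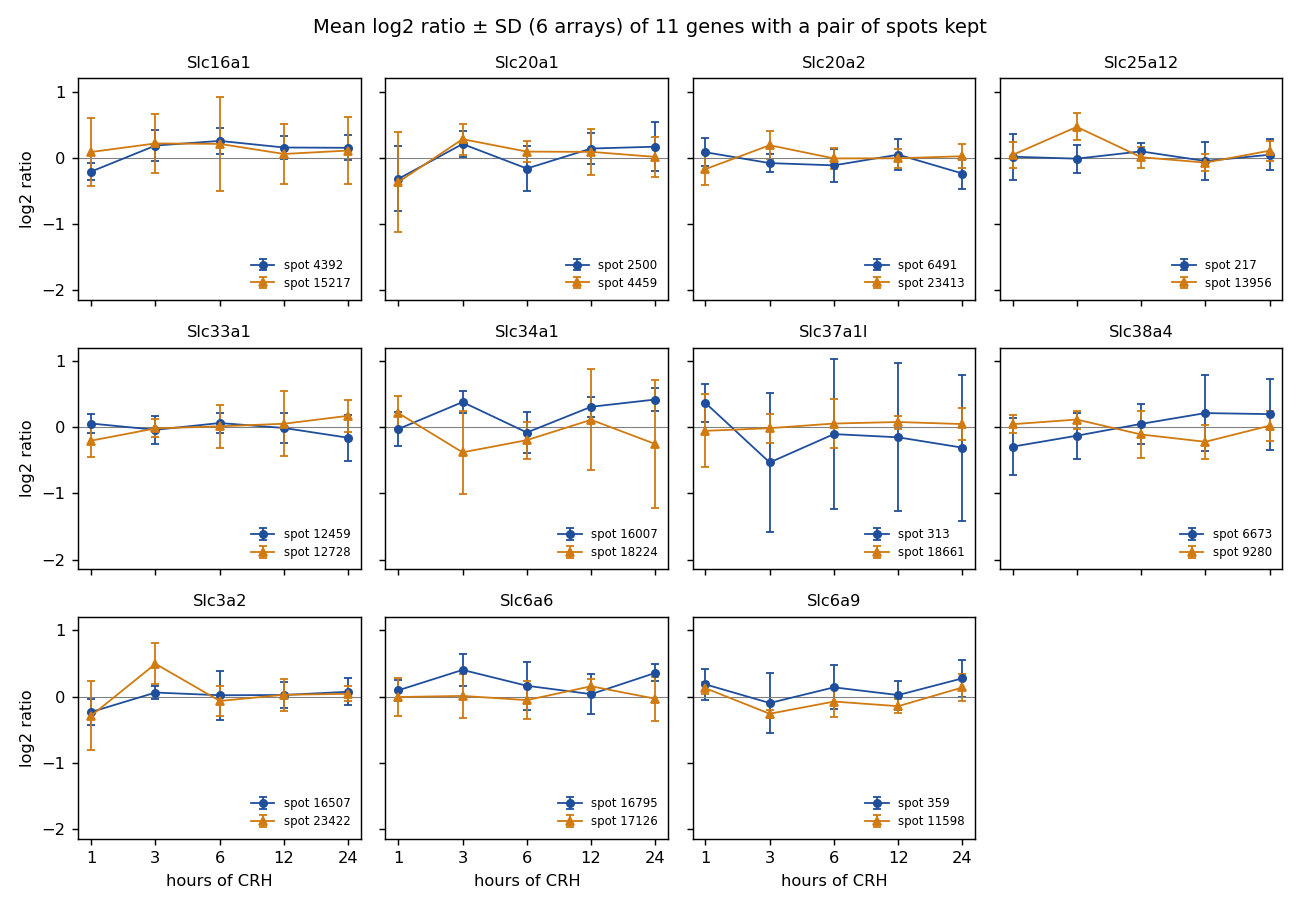
Mean log2 ratio ± SD (6 arrays) by hours of CRH for 11 of the 12 carrier genes with a pair of spots kept, 1 colour and marker per spot. The curves of Slc25a12 part at 3 h by 0.48 and those of Slc34a1 by 0.76, while 1 spot of Slc6a9 was saturated.

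The 67 solute carrier spots left out were dim on at least 1 array, and 38 of the 108 genes had no spot kept. They lay above the limit in both channels on 1 to 29 arrays (median 26), 51 of them on at least 15. The spots left out include the glutamate transporter Slc1a1 and the cystine-glutamate exchanger Slc7a11, each above the limit on 29 arrays, and the potassium-chloride cotransporters Slc12a5 and Slc12a7, each on 2. These were chosen after their values were seen. A carrier that CRH had switched on or off could be left out by this limit, so each of the 67 spots was compared at each time point. In 0 of 335 cases was a spot above the limit on all 6 arrays in one RNA and on none in the other. Since a place above the limit was not read as expression, this count cannot show whether a carrier was switched on or off. The widest difference was 6 arrays for the CRH-treated and 2 for the untreated RNA, for the glutamate transporter Slc1a2 (spot 9416) at 1 h, likewise named after its values were seen.

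**Figure D5:**
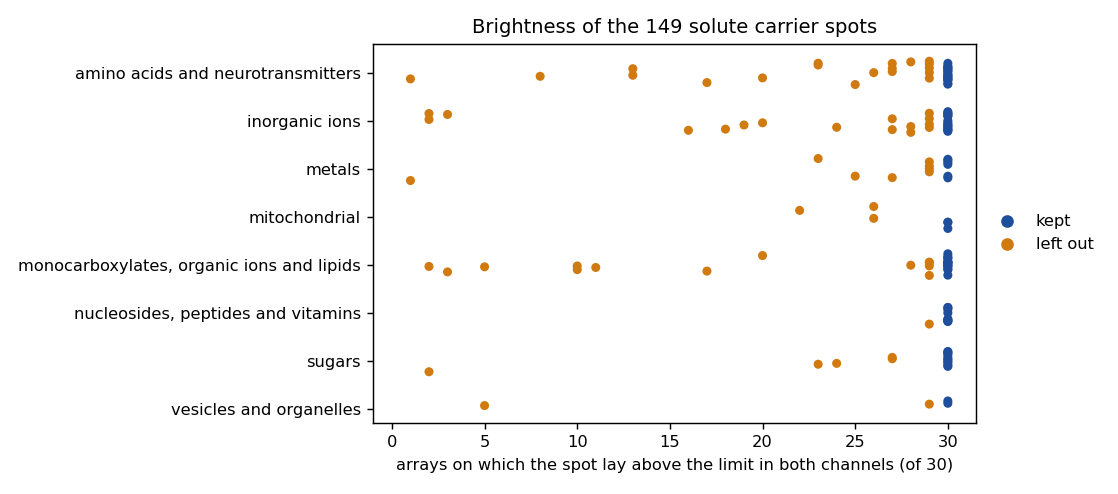
Number of the 30 arrays (horizontal axis) on which each of the 149 solute carrier spots lay above the limit in both channels, by transport class. Blue spots were kept (82) and orange ones left out (67), 36 of them above the limit on at least 25 arrays.

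Of the genes that work with carriers and other transporters, 28 were on the array with 44 spots, 28 of them kept. The test of time gave p under 0.01 in 3 of 21 spots tested (8.27% of all spots tested) and an adjusted p under 0.05 in 1 (3.85% of all), counts too small to be read as a result about these genes. The 1 was Vdac3, a pore of the outer mitochondrial membrane (-0.30, 0.11, 0.03, 0.36 and -0.25, adjusted p = 0.016). Basigin (Bsg), the chaperone of Slc16a1, had -0.16, 0.52, 0.20, 0.05 and 0.47 (adjusted p = 0.115), and its second spot was above the limit on 27 arrays only. A table of the study lists 2 further carriers. The names of their spots in the scanner files do not begin with solute carrier family, so these were not counted. The spot for Slc6a11, a GABA transporter, had -0.09 ± 0.26, 0.36 ± 0.31, -0.05 ± 0.44, -0.08 ± 0.38 and -0.26 ± 0.20 (adjusted p = 0.00994). The spot for Slc37a3, a sugar-phosphate exchanger by family, had -0.03 ± 0.16, 0.26 ± 0.15, -0.07 ± 0.28, -0.25 ± 0.30 and -0.21 ± 0.37 (adjusted p = 0.0238). As the study chose these 2 on the same arrays, their p-values are not independent evidence.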

How the data were processed

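RNA of CRH-treated and untreated AtT-20 cells was compared on 30 two-colour cDNA arrays, grouped by the hours in the labels. The authors deposited scanner intensities per spot in Cy3 and Cy5 without normalisation, read with a fixed circle, and log2 ratios tabulated for 12593 spots, made by the authors through removal of the lowest 10% and a print-tip loess fit. Here ratios were recomputed from the intensities by the same steps (span 0.75, degree 2, 4 iterations, no background subtraction, local background medians at most 28.3), with empty spots (1170) and controls (192) left out, and turned to CRH over untreated. They correlated with the deposited ratios at r from 0.979 to 0.992 on 11341 shared spots. Column medians of that table lay between -0.014 and 0.016, so its ratios are centred. In 1 file channel 1 holds Cy5, and its extra channels were not used.

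Per spot, time (5 levels) was tested at p under 0.01 after spots with a time-by-dye interaction had been set aside, with Benjamini-Hochberg adjustment over all spots tested. limma was run on the 5 averages with all spots. Spots at the scanner limit were kept. The models were tested on simulated data. Alternatives were background corrections, loess over the whole array (span 0.3), the deposited ratios, other intensity limits, blocks and arrays or times left out.

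Named were spots past a test or the rule of size, up to 6 with the next lowest p of time, up to 2 per class with the largest ratio, other spots of these genes and the carriers that the study tabulates. Classes follow the family number. Members, lists and tests were chosen with earlier results of these data known. Symbols came from the names for 138 spots, from RefSeq synonyms for 8, and 3 had no single match. The names of 4 spots (Slc9a3r1, Slc9a3r2 and Slc4a1ap) belong to regulators or adaptors. Some items are not reported here. Tools were R 4.3.3, limma 3.58.1, version 1.17.8 of data.table, Python 3.11.15, numpy 2.4.6, pandas 2.3.3 and matplotlib 3.10.9.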

Additional observations from a re-analysis of the deposited data

Results flagged for a closer look

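Among the 33 named solute carrier spots, 165 groups of 6 arrays were checked for 1 array far from the rest, and 10 held one, where chance gives about 1 in 20. The arrays were -0.47 for Slc11a1 at 12 h, -0.44 and 1.53 for Slc22a4 at 3 and 12 h, -0.40 for Slc25a12 (spot 217) at 24 h, 0.84 for Slc25a12 (spot 13956) at 3 h, -0.36 for Slc25a14 at 6 h, 0.74 for Slc34a1 (spot 16007) at 24 h, 0.62 for Slc38a4 (spot 6673) at 6 h, 0.15 for Slc3a2 (spot 16507) at 1 h and -0.27 for Slc6a9 (spot 359) at 24 h. Without that array the mean of Slc22a4 at 12 h was 0.0715 and that of Slc25a12 (spot 13956) at 3 h 0.394, against 0.31 and 0.47 with it.

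The ratio differed between time points, by the test of time over the 30 arrays, for Slc6a9 (spot 11598, adjusted p = 0.00527, saturated on 27 of the 30 so that no difference can be read), Slc25a12 (spot 13956, 0.00973, saturated on 7), Slc7a5 (0.0277), Slc16a1 (spot 4392, 0.0348) and Slc3a2 (spot 23422, 0.0456).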

How the results depend on the processing

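The 0 calls of solute carriers for a CRH effect and for a trend held under all 13 alternatives of each. Change over time at p under 0.01 (8 spots) gave 5 with the deposited ratios, 2 with hours as 1 number, 3 with the day of quantification as a block, 2 within day 2 and 0 within day 4, 5 with spots at the scanner limit left out, and 5 to 9 without 1 replicate. At an adjusted p under 0.05 (5 spots) it gave 1 with 1 loess curve, 2 with the deposited ratios, 0 with hours as 1 number, 1 with the day as a block, 3 with limma's F test, 0 within either day, 2 with spots at the scanner limit left out, and 1 to 5 without 1 replicate (1 without replicate 2 or 6, 2 without 3, 3 without 1 or 4). Over all spots tested the 1013 calls at p under 0.01 became 878, 462, 335, 352, 162 and 939 in the order given. Without 1 replicate they were 737 to 1033. The 472 at an adjusted p under 0.05 became 325, 402, 31, 37, 381, 4, 0 and 390 in the order given. Without 1 replicate they were 212 to 480. Interactions (13) numbered 8 with hours as 1 number, and over all spots (2126) they numbered 1088. The called mitochondrial spot (1) became 0 under normexp, percentile subtraction, 1 loess curve, the deposited ratios, the 25% limit and without replicate 3, set aside for an interaction or, in the deposited ratios, not held. The size rule (0) gave 3 spots with the 10th percentile subtracted (Slc38a3 1.14 at 3 h and 0.69 at 6 h, Slc3a2 0.64 at 3 h, Slc29a2 0.79 at 24 h), 1 with no filter (Slc1a2, 0.67 at 1 h) and 0 to 1 without 1 replicate (Slc3a2, 0.59 at 3 h without replicate 3). Over all spots the size rule (81) gave 403 with the 10th percentile subtracted, 283 with no filter and 107 to 138 without 1 replicate. Some falls in the test of time came from spots not tested. Slc6a9 (spot 11598) was not held in the deposited ratios and was left out with the spots at the scanner limit. Slc3a2 (spot 23422) was set aside for an interaction without replicate 1. Apart from these and the mitochondrial spot, the cause was not tested. With the replicate number as a replicate block in place of dye orientation, 3 carrier spots had an adjusted p under 0.05. Over all spots tested 398 did. No pairing of arrays by number across time points was seen, as 0 of 60 same-number pairs correlated above 0.1 (r from -0.03 to 0.05). Such correlations cannot exclude a pairing. Without independent cultures, no spread between cultures could be estimated.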
